A study of Mus musculus with 24 samples.

Results

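Transcript levels of 10 marker genes of the hippocampal subfields were examined in whole-hippocampus RNA from aged mice. The genes were chosen by name as markers of the dentate gyrus (DG: Prox1, Dsp, C1ql2, Tdo2), CA1 (Wfs1, Fibcd1), CA2 (Rgs14, Amigo2) and CA3 (Cpne4, Bok). The rule uses no measured value, but earlier results of these data were known when the genes were chosen. They are 10 of the 49568 gene symbols in the count files. The study sequenced 24 hippocampal samples from male mice, 1 mouse each, with 6 mice in each of 4 groups: wild-type mice in standard housing (WTSH), wild-type mice in enriched housing (WTEE), MSK1 kinase-dead mice in standard housing (KDSH) and MSK1 kinase-dead mice in enriched housing (KDEE). MSK1, encoded by Rps6ka5, is a nuclear kinase that acts on CREB and histone H3, and the kinase-dead (KD) mice were homozygous for a point mutation that inactivates its N-terminal kinase domain. Both lines were on a C57-Bl/6J background and were kept as separate homozygous lines, so genotype and line of descent cannot be told apart. Enriched mice lived from 18 months of age in larger cages with more companions, a running wheel, tubes and toys, and RNA was prepared at 21 to 23 months.

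The hippocampal formation is a chain of fields with different principal neurons: granule cells of the dentate gyrus send mossy fibres to CA3, CA3 projects to CA1, and the small CA2 field lies between CA3 and CA1. Each field expresses genes at much higher levels than its neighbours, so in RNA from a whole hippocampus the ratios of such genes reflect both how much of each field was dissected and how much RNA of each gene its cells held. In these bulk samples fewer cells of a type and less RNA per cell cannot be told apart.

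The study left out samples 4 and 7 (both WTSH) and 6 (KDSH), which leaves 4 WTSH, 6 WTEE, 5 KDSH and 6 KDEE libraries, the 21 used here unless stated. These held 27410239 to 71907130 counts on genes (median 47549989). Reads assigned to ribosomal RNA gene models were 0.021 to 1.69% of the counts in the 21 libraries, and 17.3%, 4.37% and 17.6% in samples 4, 6 and 7. Among the 21, WTEE mouse 10 stood apart: it had the lowest Prox1, Fibcd1, Cpne4 and Rps6ka5 of the 21 and the highest Bok. Since the mutation changes a single codon, the level of Rps6ka5 does not check the genotype labels, and its 4 group means lay between 1043 and 1158 TMM-normalized counts (counts scaled by library size and by the trimmed mean of M-values).

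All 10 markers passed the filter on low counts, and the lowest raw count of any of them in the 21 libraries was 139, for Tdo2. Per kilobase of exon, the mean normalized count over the 21 libraries was highest for Wfs1 (2295 counts per kb), C1ql2 (2210) and Bok (2082), followed by Fibcd1 (1693), Rgs14 (1135), Cpne4 (805), Prox1 (463), Amigo2 (306), Dsp (177) and Tdo2 (67.6). The first 4 had overlapping ranges over the libraries, and so did Rgs14 and Fibcd1. The lowest Rgs14 value (972 counts per kb) lay above the highest Cpne4 value (901), and the lowest Cpne4 value (676) lay above the highest Prox1 value (631). Below that, the ranges of Prox1 and Amigo2, of Amigo2 and Dsp, and of Dsp and Tdo2 overlapped. The spread between mice of 1 group differed widely among the markers: the within-group SD on the log2 scale was 0.092 for Cpne4 and 0.435 for Dsp, with a median of 0.21 over the 10, compared with 0.15 for all genes with a mean log2 CPM over 2.

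No marker was called in any of the 7 comparisons by the study's thresholds (an adjusted p below 0.05 with a log2 fold change beyond 0.38 either way, edgeR quasi-likelihood test with Benjamini-Hochberg adjustment over 20187 genes). The same thresholds called 0% of all genes tested in 6 comparisons and 0.00495% (1 gene) for enriched against standard housing averaged over the genotypes. DESeq2, which gave a p for 37779 genes, also called 0 of the 10 in each comparison but called more genes overall: 0.312% (118 genes) in KDEE against WTEE, 0.109% (41) for averaged housing, 0.0529% (20) for the interaction, 0.0371% (14) in KDEE against KDSH, 0.00529% (2) in WTEE against WTSH and 0% in the other comparisons. A looser rule, an unadjusted p under 0.05, was therefore also counted, and Bok was the marker that passed it most often. The looser rule was met by 1 of 10 markers in WTEE against WTSH (6.55% of all genes) and 2 of 10 in KDEE against KDSH (11.6%). With the genotypes averaged it was met by 2 of 10 (18.9% of all genes). It was met by 0 of 10 in KDSH against WTSH (1% of all genes), 1 of 10 in KDEE against WTEE (4.99%) and 1 of 10 in KD against WT averaged over housing (1.9%). For the interaction, the housing difference in WT minus that in KD, it was 0 of 10 against 3.26% of all genes. With so few markers, a share of 1 or 2 in 10 is not set apart from these backgrounds.

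**Figure D1:**
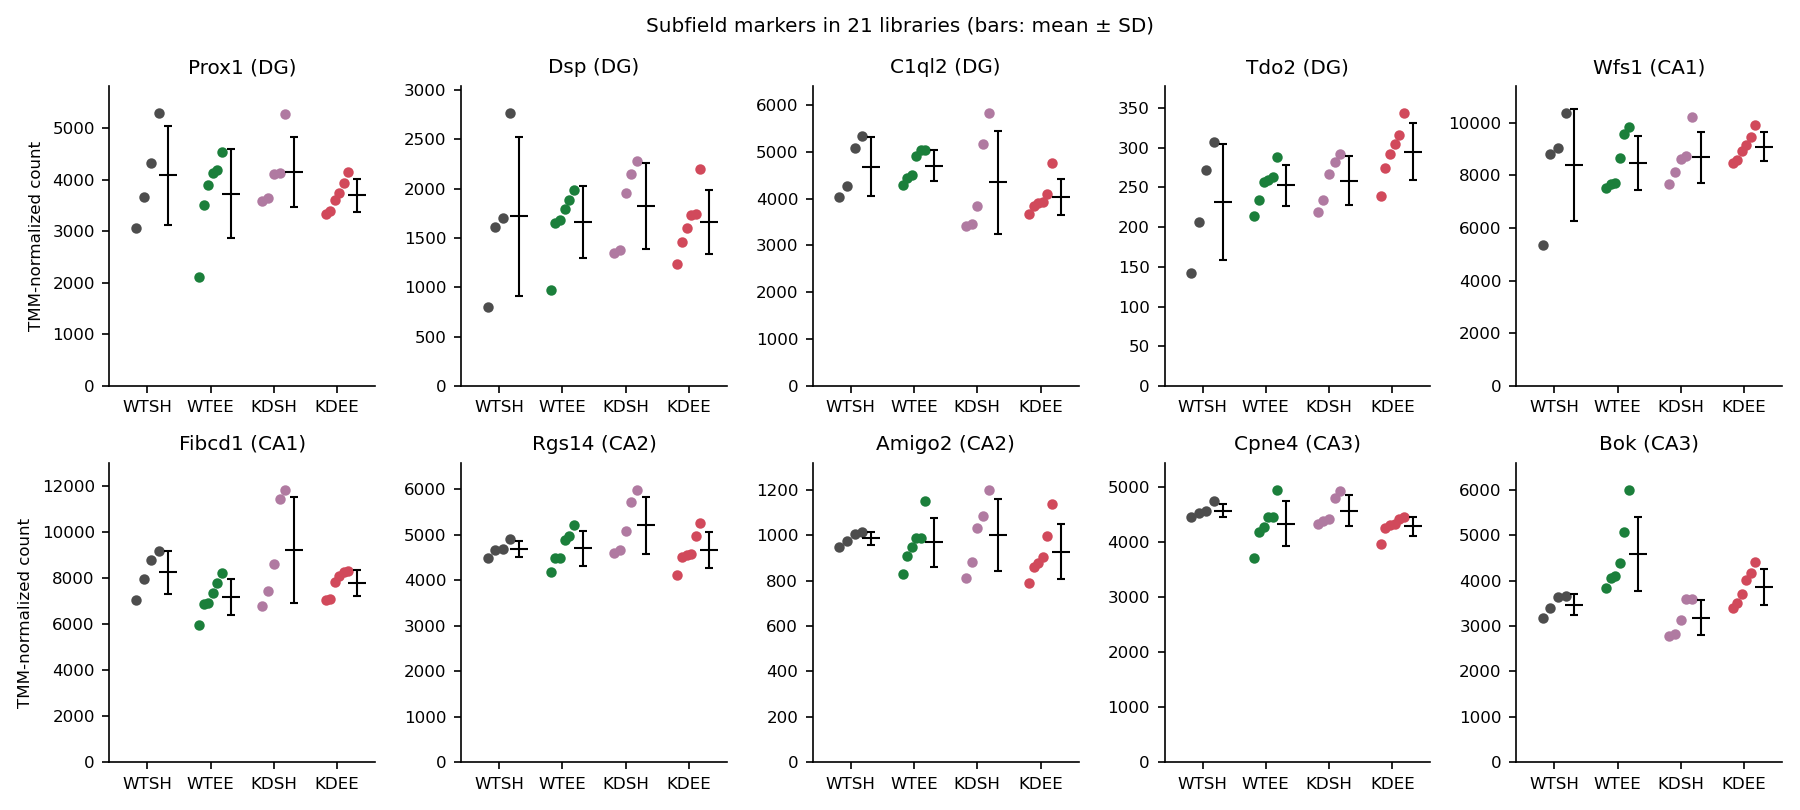
TMM-normalized counts (vertical axes, from 0) of the 10 subfield markers in each of 21 libraries by group, with the mean and SD of each group as a bar beside the points. Bok in WTEE lies above all 4 WTSH libraries, while the groups overlap for the other 9 markers in that comparison.

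The dentate gyrus markers did not separate the groups. Prox1, the homeobox factor that keeps granule cells in their identity (chromosome 1, 190118035 to 190170714, minus strand, GRCm38), was measured at 3060, 3667, 4324 and 5291 normalized counts in the 4 WTSH mice. WTEE ran from 2106 through a median of 4015 to 4534, the lowest being mouse 10 and the next 3509. KDSH values were 3581, 3656, 4110, 4131 and 5277, and KDEE ran from 3338 through 3680 to 4157. Every pair of groups overlapped. The log2 fold change of Prox1 with enrichment was -0.13 (SE 0.17) in WT and -0.17 (SE 0.16) in KD mice.

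Dsp encodes desmoplakin, a protein of desmosomes (chromosome 13, 38151294 to 38198577, plus strand), and 5.17% of its exon length is shared with a gene model on the other strand. In WTSH it was 802, 1616, 1700 and 2765, a wider range than in any other group, with mouse 23 at the bottom and mouse 5 at the top. WTEE ran from 969 (mouse 10) through 1736 to 1984. KDSH ran from 1352 to 2285 and KDEE from 1239 to 2202. Its fold changes with enrichment were -0.05 (SE 0.25) in WT and -0.13 (SE 0.23) in KD mice, both smaller than their standard errors.

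C1ql2 encodes a secreted C1q-like protein of mossy fibre synapses (chromosome 1, 120340582 to 120343174, plus strand). It was 4031, 4271, 5077 and 5338 in WTSH, and ran from 4285 through 4700 to 5042 in WTEE. In KDSH the values were 3422, 3455, 3843, 5175 and 5821, with mice 1 and 3 well above the other three, and KDEE ran from 3664 through 3910 to 4768. The log2 fold change with enrichment was 0.01 (SE 0.13) in WT and -0.11 (SE 0.12) in KD mice. Tdo2, which encodes an enzyme that breaks down tryptophan (chromosome 3, 81957090 to 81976202, minus strand), had the lowest level of the 10. The normalized count averaged 232 ± 72.8 in WTSH (SD, n = 4), 253 ± 25.7 in WTEE (n = 6), 259 ± 31.1 in KDSH (n = 5) and 295 ± 35.9 in KDEE (n = 6). The WTSH mean held mouse 23 at 142, the lowest value of any library. Tdo2 had log2 fold changes with enrichment of 0.12 (SE 0.16) in WT and 0.19 (SE 0.15) in KD mice, neither past the looser rule. Of 7 further dentate markers (Dock10, Glis3, Plekha2, Il16, Trpc6, Plk5, Stxbp6), 0 passed the looser rule in either housing comparison, with median log2 fold changes of -0.07 in WT and -0.10 in KD mice. With the genotypes averaged, 1 of the 7 was lower by it (Il16, -0.20), where 18.9% of all genes passed.

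With enrichment the fold changes of the 2 CA1 markers had opposite signs, although that of Wfs1 was near 0, and between the genotypes they shared a sign. Fibcd1, a membrane receptor that binds acetylated sugars (chromosome 2, 31813290 to 31846005, minus strand), was measured at 7056, 7956, 8785 and 9184 in WTSH and ran from 5969 (mouse 10) through 7133 to 8228 in WTEE. In KDSH it was 6776, 7434, 8619, 11447 and 11830, and in KDEE it ran from 7064 through 7962 to 8323. The 2 highest KDSH values came from mice 1 and 3, the same mice that had the highest C1ql2 of their group. The log2 fold change of Fibcd1 with enrichment was -0.20 (SE 0.13) in WT and -0.24 (SE 0.12) in KD mice. Averaged over the genotypes it was -0.22 (SE 0.09), past the looser rule (adjusted p = 0.232, edgeR). Without KDSH mouse 1, or without KDSH mouse 3, or without WTSH mouse 5, Fibcd1 no longer passed the looser rule in that comparison.

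Wfs1 encodes wolframin, a protein of the endoplasmic reticulum membrane (chromosome 5, 36966104 to 36989205, minus strand), and had the highest level per length of the 10. It was 5344, 8829, 9049 and 10361 in WTSH, with mouse 19 as the lowest library of all 21. WTEE ran from 7509 through 8179 to 9840, KDSH from 7687 through 8623 to 10229 and KDEE from 8482 through 9050 to 9928. Its log2 fold change with enrichment was 0.02 (SE 0.13) in WT and 0.07 (SE 0.12) in KD mice, and without WTSH mouse 19 the WT value was -0.15. Of 4 further CA1 markers (Mpped1, Pou3f1, Spink8, Man1a), 1 was higher by the looser rule in WTEE against WTSH (Spink8, log2 fold change 0.35) and 0 in KDEE against KDSH, with medians of 0.05 and 0.02.

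The CA2 pair varied less between mice of 1 group than the dentate and CA1 markers, with within-group SDs on the log2 scale of 0.13 for Rgs14 and 0.17 for Amigo2. Rgs14, a regulator of G protein signalling that restrains synaptic plasticity in CA2 neurons (chromosome 13, 55369732 to 55384687, plus strand), was 4480, 4665, 4688 and 4917 in WTSH and ran from 4182 through 4686 to 5220 in WTEE. KDSH values were 4598, 4676, 5074, 5712 and 5991, and KDEE ran from 4121 through 4572 to 5252. The KDSH mice reached higher than the other groups, again through mice 1 and 3, and all groups overlapped. Rgs14 had a log2 fold change of 0.01 (SE 0.08) in WT and -0.16 (SE 0.07) in KD mice with enrichment, the second past the looser rule (adjusted p = 0.423, edgeR). It missed the looser rule in 13 of the 21 fits that left out 1 library.

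Amigo2 encodes a leucine-rich repeat adhesion protein (chromosome 15, 97244125 to 97247287, minus strand). The normalized count averaged 985 ± 30.1 in WTSH (SD, n = 4), 968 ± 107 in WTEE (n = 6), 1001 ± 157 in KDSH (n = 5) and 927 ± 122 in KDEE (n = 6). Every pair of groups overlapped. Its log2 fold change with enrichment was -0.03 (SE 0.11) in WT and -0.11 (SE 0.10) in KD mice. Of 5 further CA2 markers (Pcp4, Map3k15, Cacng5, Ntf3, Avpr1b), 0 passed the looser rule in either housing comparison, although their median log2 fold changes were 0.25 in WT and 0.15 in KD mice, opposite in sign to those of the Rgs14 and Amigo2 pair (-0.01 and -0.13).

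**Figure D2:**
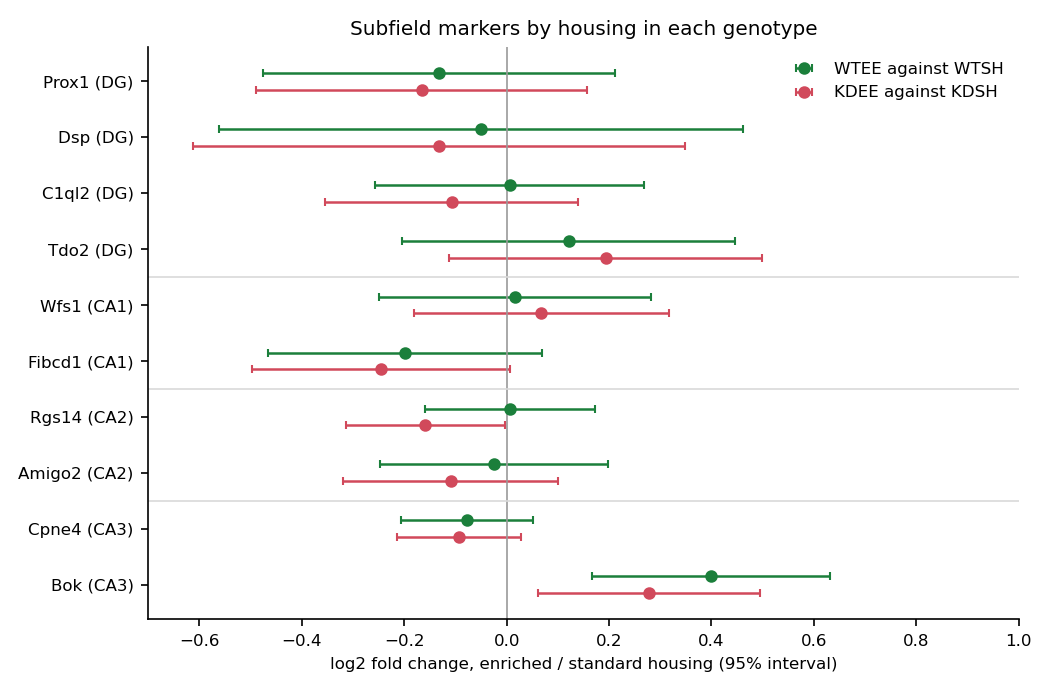
Log2 fold change of each subfield marker with enriched housing (horizontal axis, points) and its 95% interval (bars) in wild-type mice (WTEE against WTSH, green) and MSK1 kinase-dead mice (KDEE against KDSH, red), edgeR fit over 21 libraries. The intervals of Bok lie above 0 in both genotypes, that of Rgs14 lies just below 0 in KD mice, and the others include 0.

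The 2 CA3 markers differed from each other. Bok encodes a member of the BCL2 family of cell death regulators (chromosome 1, 93685660 to 93695764, plus strand). It was measured at 3170, 3401, 3634 and 3670 in WTSH, and at 3844, 4055, 4108, 4391, 5064 and 5997 in WTEE, the last in mouse 10. Every WTEE library was above every WTSH library, a separation seen in 0.986% of all genes tested and in 1 of the 10 markers. KDSH values were 2787, 2834, 3127, 3583 and 3592, and KDEE values were 3391, 3505, 3703, 4011, 4158 and 4411. In KD mice 2 KDEE libraries lay below the highest KDSH library, so the groups overlapped, as they did for all 10 markers in KDEE against KDSH (1.84% of all genes did not overlap), KDSH against WTSH (0.644%) and KDEE against WTEE (0.624%).

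The log2 fold change of Bok with enrichment was 0.40 in WT mice (SE 0.11, 95% interval 0.17 to 0.63, adjusted p = 0.651, edgeR). In KD mice it was 0.28 (SE 0.10, 95% interval 0.06 to 0.50, adjusted p = 0.383, edgeR). Averaged over the genotypes it was 0.34 (SE 0.08, adjusted p = 0.174, edgeR), at rank 23 of the 20187 genes by p. The difference between the genotypes was not detectable (interaction 0.12, SE 0.15, 95% interval -0.19 to 0.44, adjusted p = 1, edgeR). Leaving out WTEE mouse 10 gave 0.31 in WT mice, still past the looser rule, and an interaction of 0.03. The averaged fold change was between 0.30 and 0.37 in the fits that left out 1 library. Its adjusted p, 0.174 above, was 0.0184 by DESeq2 and 0.044 in edgeR with all 24 libraries, in both cases below the fold threshold, and 0.517 with the choroid plexus level as a covariate.

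Cpne4 encodes a copine, a calcium-dependent phospholipid-binding protein (chromosome 9, 104547286 to 105034544, plus strand). It was the steadiest of the 10 between mice. The WTSH values were 4469, 4526, 4570 and 4751, and the WTEE values were 3718 (mouse 10), 4180, 4277, 4454, 4454 and 4956. KDSH mice were at 4331, 4392, 4416, 4813 and 4933, and KDEE mice ran from 3968 through 4326 to 4457. The log2 fold change with enrichment was -0.08 (SE 0.06) in WT and -0.09 (SE 0.06) in KD mice, with the sign opposite to that of Bok and with no overlap between the 95% intervals of the 2 genes in either genotype (-0.21 to 0.05 for Cpne4 in WT, -0.21 to 0.03 in KD).

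Because both genes come from the same library, their ratio needs no scaling between libraries. This ratio was singled out after its values were seen and has no test. The log2 ratio of Bok to Cpne4, in counts per kb, was 1.18 ± 0.10 in WTSH (SD, n = 4) and 1.64 ± 0.34 in WTEE (n = 6), with a highest WTSH library of 1.30 and a lowest WTEE library of 1.37. In KD mice it was 1.05 ± 0.10 in KDSH (n = 5) and 1.42 ± 0.16 in KDEE (n = 6), with a highest KDSH library of 1.15 and a lowest KDEE library of 1.19. Neither genotype showed an overlap between enriched and standard housing. This was 1 of 9 ratios of 2 markers of the same field, and the only 1 that separated groups. How often pairs among all genes separate in this way was not computed. Of the samples the study left out, 4 had a ratio of 0.85, below the WTSH range, and 7 a ratio of 1.09, inside it, while sample 6 (KDSH) was at 1.43, inside the KDEE range. No measurement here checks the housing label of sample 6, which bears on this value and on the fits with all 24 libraries.

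**Figure D3:**
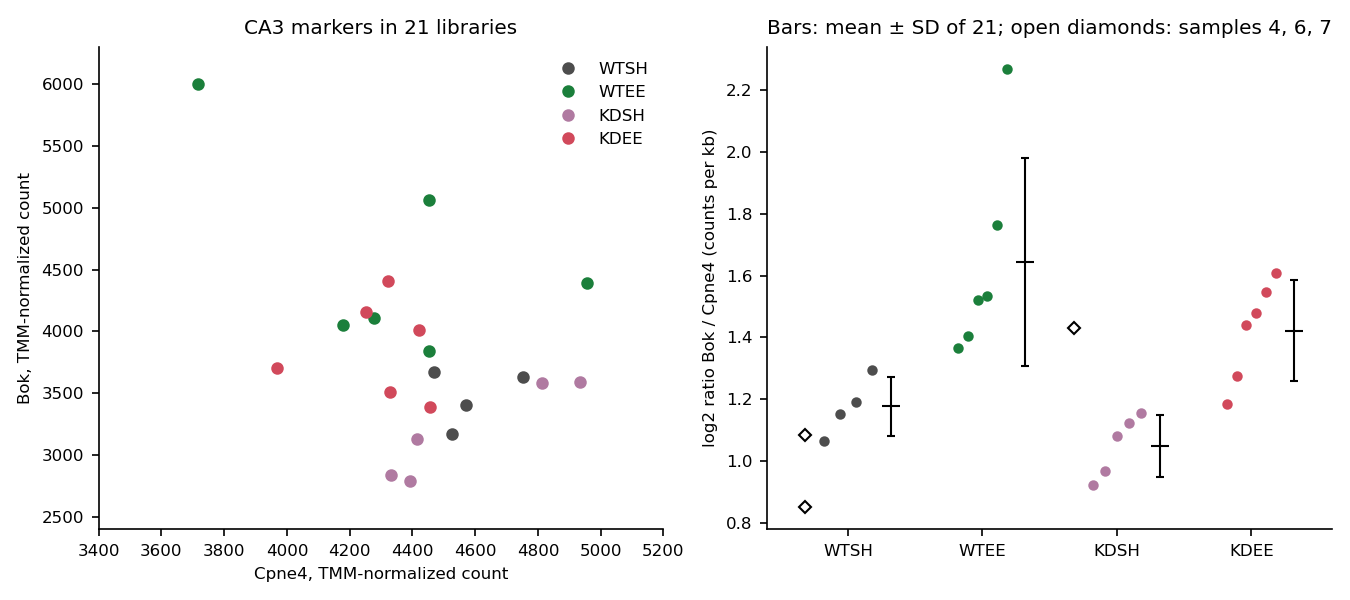
Left, Bok against Cpne4 (TMM-normalized counts, axes not from 0) in 21 libraries coloured by group. Right, the log2 ratio of Bok to Cpne4 in counts per kb by group, with mean and SD as bars and samples 4, 6 and 7 as open diamonds; both enriched groups lie above their standard-housing group, and sample 6 at 1.43 is the exception among the left-out libraries.

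Further CA3 markers did not follow Bok. Of Iyd, Coch, Grik4, Cdh24 and Trps1, 2 of 5 were lower by the looser rule in WTEE against WTSH and 1 of 5 in KDEE against KDSH, and 0 were higher in either. Their median log2 fold changes were -0.23 and -0.06, from -0.38 (Cdh24) to -0.02 (Coch) in WT and from -0.33 (Iyd) to 0.12 (Coch) in KD mice, where the medians over all genes tested were 0.01 and 0.00. With the genotypes averaged, 2 of 5 were lower by the looser rule, Cdh24 most, at -0.34. In that comparison 1 of 4 further CA1 markers was higher by it (Spink8, 0.24). For CA2 it was 0 of 5, beside 18.9% of all genes. Markers of oligodendrocytes (Mog, Mag, Mobp, Opalin) were higher by the looser rule for 1 of 4 in WTEE against WTSH (median 0.23) and 3 of 4 in KDEE against KDSH (median 0.28). Their summed normalized count ran from 52650 to 80313 in WTSH, 63594 to 80669 in WTEE, 50651 to 80217 in KDSH and 59842 to 86753 in KDEE, and none of the 4 was at 0 in any library. The correlation of Bok with these genes was looked at after the Bok values were seen. With the group means removed, its correlation with the mean of the 4 over 21 libraries was r = 0.40 (Spearman's rho 0.43), 0.34 without WTEE mouse 10 and 0.66 without the 2 libraries farthest from the median oligodendrocyte level. Oligodendrocytes were not the list closest to Bok. The striatal list (Rgs9, Adora2a) was, at r = 0.675 (Spearman's rho 0.695, and r = 0.61 without WTEE mouse 10). Astrocyte and microglial markers were at 0.342 and 0.334. The part of oligodendrocyte or other tissue content in the Bok difference was not tested. Averaged over the genotypes, where the p of Bok was lowest, 4 of 4 oligodendrocyte markers were higher by the looser rule (median 0.25). Of 3 astrocyte markers, 1 was higher by the looser rule in each of the 2 comparisons (Gfap, 0.27 and 0.29), with medians of 0.07 and 0.17. Of 3 microglial markers, 0 passed it in either, with medians of -0.07 and 0.16.

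The stretches just before the annotated starts of the 2 markers past the looser rule for averaged housing are shown because MSK1 acts on CREB, whose cAMP response element reads TGACGTCA on both strands. RefSeq promoter windows (GRCm38.p6) matched 9 of the 10 markers in 11 windows, and the 250 bases before each start were searched for this element and, on both strands, for its first 5 bases, TGACG, which the whole element contains. The whole element was in 0 of 11 windows and in 1.55% of 32851 RefSeq windows of the same length, and the shorter run was in 1 of 11 windows, that of Fibcd1, and in 17.8% of all windows. Capitals mark the shorter run, here on the opposite strand and starting 199 bases before the Fibcd1 start, and the window of Bok holds none.
Bok, chr1:93685325-93685574, plus strand: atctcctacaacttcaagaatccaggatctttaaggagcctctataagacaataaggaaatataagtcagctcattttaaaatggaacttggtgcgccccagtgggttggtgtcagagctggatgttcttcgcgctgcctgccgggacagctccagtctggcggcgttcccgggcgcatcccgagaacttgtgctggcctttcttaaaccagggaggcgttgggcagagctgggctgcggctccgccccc
Fibcd1, chr2:31846006-31846255, minus strand: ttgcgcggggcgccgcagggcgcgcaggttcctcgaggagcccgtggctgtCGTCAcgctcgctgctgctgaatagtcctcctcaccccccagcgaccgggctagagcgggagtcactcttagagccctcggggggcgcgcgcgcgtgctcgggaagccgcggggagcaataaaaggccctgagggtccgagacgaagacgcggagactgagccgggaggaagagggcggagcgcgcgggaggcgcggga
A match of letters is a description of the window, and its absence says only that these letters are not there.

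The genotypes were compared within each housing. For KDSH against WTSH the log2 fold changes ran from -0.12 (Bok) to 0.16 (Fibcd1), and for KDEE against WTEE from -0.24 (Bok) to 0.23 (Tdo2). Bok passed the looser rule in KDEE against WTEE (SE 0.10, adjusted p = 0.773, edgeR) but not without WTEE mouse 10, when the log2 fold change was -0.15. Leaving out KDEE mouse 20 or WTEE mouse 17 also took it out of the looser rule, at -0.21 and -0.22. Averaged over housing, Bok was lower in KD mice by the looser rule, at -0.18 (SE 0.08, adjusted p = 1, edgeR), and the other 9 did not pass it, with C1ql2 at -0.16 (SE 0.09) and Tdo2 at 0.19 (SE 0.11). With all 24 libraries Bok no longer passed it in that comparison, at -0.13, and Tdo2 passed it instead, at 0.21. Over all genes 874 of 19817 passed it there. The interaction ran from -0.07 (Tdo2) to 0.16 (Rgs14).

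Ratios between subfields were computed as the mean over a field's markers of log2 (count + 0.5) per kb of exon minus the same for another field, and being scores over the markers they have no test. The dentate to CA1 ratio was -2.60 ± 0.39 in WTSH (SD, n = 4), -2.50 ± 0.14 in WTEE (n = 6), -2.63 ± 0.14 in KDSH (n = 5) and -2.60 ± 0.10 in KDEE (n = 6). Its differences between groups ran from -0.10 to 0.10, and those of the dentate to CA2 ratio from -0.004 to 0.09. WTSH mice spread most, from -3.07 in mouse 23 to -2.25 in mouse 19. Of 24 differences (6 ratios in 4 comparisons), 6 exceeded 1 within-group SD and 0 separated the groups without overlap. In 10 of the 24 the sign turned without 1 library, all of them among the 4 ratios that hold the dentate markers or set CA1 against CA2. The dentate to CA1 difference of WTEE from WTSH, 0.10, was -0.06 without WTSH mouse 23, and the dentate to CA2 difference, 0.04, was -0.13. Without WTSH mouse 5 the dentate to CA3 difference of the same groups went from -0.13 to 0.05, and without WTSH mouse 2 the CA1 to CA2 difference went from -0.06 to 0.01.

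CA3 was in 5 of these 6, and the other was CA1 to CA2 in KDEE against WTEE (0.15). The 5 included differences between genotypes. These were CA1 to CA3 in KDEE against WTEE (0.235, the largest of the 24) and CA2 to CA3 in KDSH against WTSH (0.143). The CA2 to CA3 ratio was -1.09 ± 0.06 in WTSH, -1.26 ± 0.10 in WTEE, -0.95 ± 0.09 in KDSH and -1.18 ± 0.10 in KDEE. It was lower with enrichment by 0.17 in WT and 0.22 in KD mice on the log2 scale, beside a within-group SD of 0.09. The CA1 to CA3 ratio was lower by 0.23 in WT and 0.16 in KD mice, with an SD of 0.17. Without Bok, which leaves Cpne4 alone for CA3, the CA2 to CA3 differences were 0.07 and -0.04 and the CA1 to CA3 differences 0.01 and 0.02. With the further lists in place of the 10 markers, the signs turned: the CA2 to CA3 differences were 0.47 and 0.31 and the CA1 to CA3 differences 0.33 and 0.15. With Cpne4 alone for CA3, neither of these ratios kept the shift with enrichment given by the 10 markers. The size and the sign of both shifts therefore depended on the markers chosen. The CA1 to CA3 shift also drew on Fibcd1. Its log2 ratio to Wfs1 differed by -0.25 in WT and -0.28 in KD mice with enrichment.

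**Figure D4:**
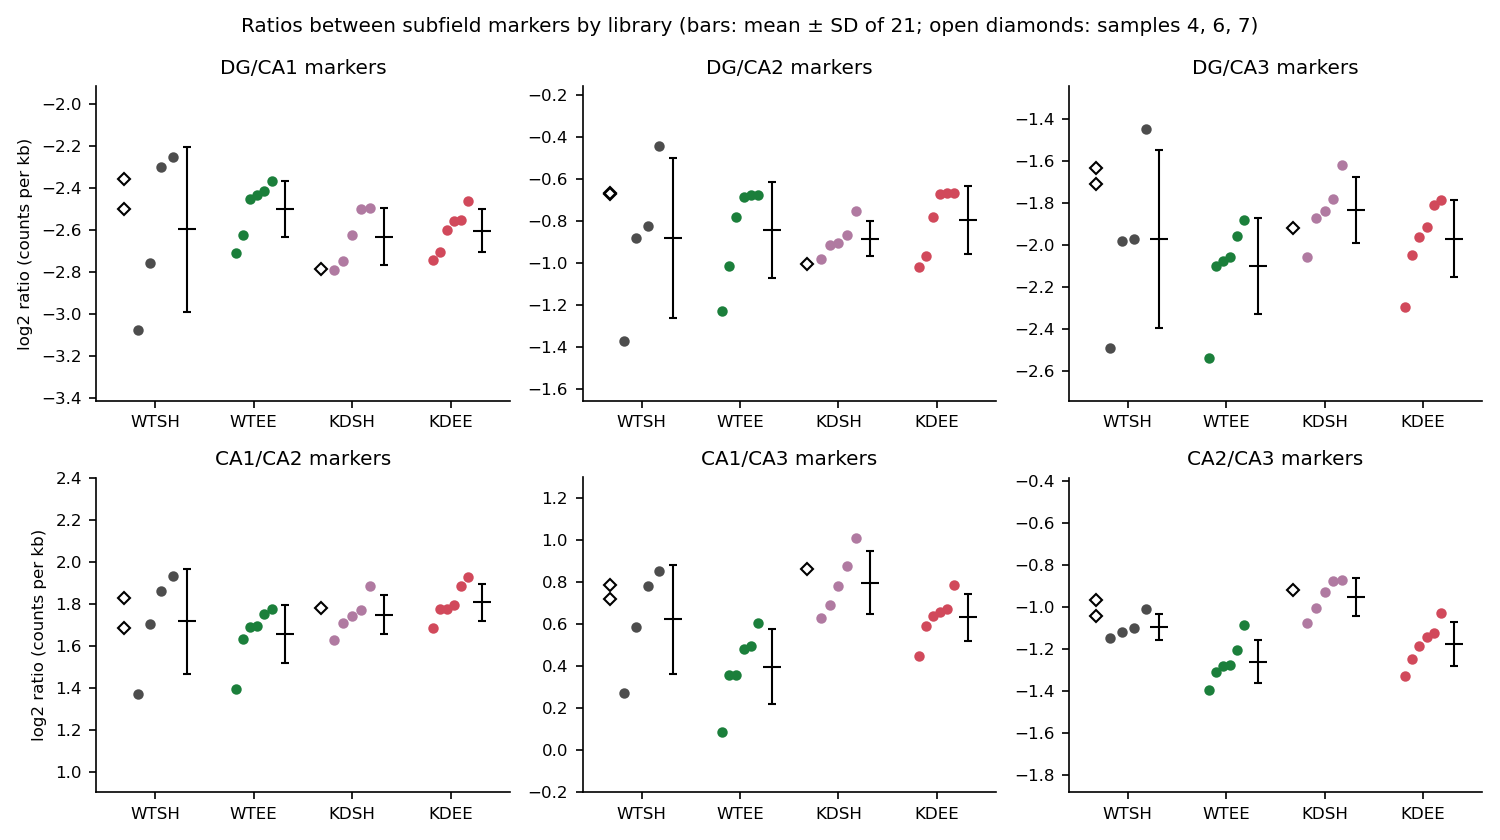
Log2 ratios between the markers of each pair of subfields (vertical axes, counts per kb, panels of equal height) in each library by group, with mean and SD of the 21 libraries as bars and samples 4, 6 and 7 as open diamonds. All left-out samples lie inside the range of the 21 libraries, and the enriched groups sit lower in the CA2/CA3 panel, from -1.40 to -1.03, with overlap.

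In the ratios between fields, all 18 of their values (6 ratios in 3 samples) lay inside the range of the 21 libraries, and 16 lay inside the range of their own group. The 2 exceptions were the dentate to CA2 ratio of sample 6 (below KDSH, which ran from -0.98 to -0.75) and the CA2 to CA3 ratio of sample 4 (-0.97, where WTSH ran from -1.15 to -1.01). On the scale of a TMM fit to all 24 libraries, Prox1 was 4877, 3261 and 4849 in samples 4, 6 and 7, and Bok was 2714, 3503 and 2936. Of the ratios of 2 markers of the same field, which share genes, 5 of 27 values lay outside the range of the 21 libraries. Sample 7 held 4 of these and sample 4 held 1. Sample 7 was below that range for Tdo2 to Dsp (-2.38 beside a lowest of -1.97), Tdo2 to Prox1 (-3.58 beside -3.31), C1ql2 to Dsp (2.83 beside 2.94) and C1ql2 to Prox1 (1.63 beside 1.80), and sample 4 for Bok to Cpne4 (0.85 beside 0.92). Sample 6 was outside in 0 of 9. With all 24 libraries in the fit, Bok and Fibcd1 passed the looser rule in WTEE against WTSH, as did 3631 of 19817 genes. Fibcd1, Rgs14 and Bok passed it in KDEE against KDSH, as did 2034 of 19817 genes.

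Markers of 1 field did not follow each other more closely than markers of different fields in a uniform way. With the group means removed, the correlations of log2 CPM over 21 libraries had a median of 0.32 for the 9 pairs within a field (-0.11 to 0.82) and 0.20 for the 36 pairs across fields (-0.46 to 0.73). The closest pair was Prox1 and Dsp (r = 0.82), and the pairs of CA1 (0.14), CA2 (0.11) and CA3 (-0.11) were weak. Leaving out WTEE mouse 10 turned the CA3 pair to 0.32. Fibcd1 correlated with Prox1 (0.68), Dsp (0.67), C1ql2 (0.69) and Cpne4 (0.64) more than with Wfs1, its CA1 partner. Bok correlated with Rgs14 at 0.67. All points share the depth and the composition of their library, and these values are descriptions with no test.

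**Figure D5:**
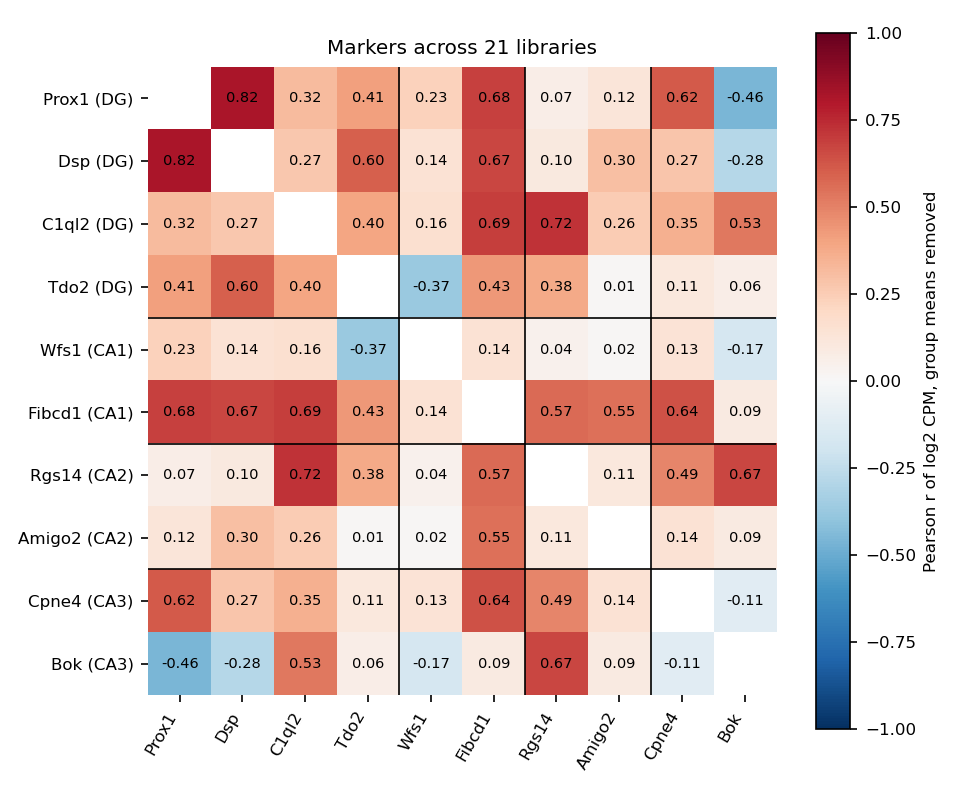
Pearson r of log2 CPM with group means removed, for each pair of the 10 subfield markers over 21 libraries (colour and number; lines separate the subfields). Prox1 and Dsp reach 0.82, while Bok and Cpne4, both CA3 markers, are at -0.11.

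Among 12334 other genes with a mean log2 CPM over 2, those most like the mean of the dentate markers over the same 21 libraries were Npnt (r = 0.928), Gng7 (0.915) and Kbtbd11 (0.913). For CA1 they were Slc17a7 (0.939), Chrm1 (0.932) and Jph3 (0.928). The CA2 mean was followed by Gtf3c5 (0.841), Lor (0.825) and Naprt (0.786), and the CA3 mean by Lmf1 (0.858), Naprt (0.828) and Alg1 (0.804).

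Markers of tissue next to the hippocampus were measured as a check on the dissection. Choroid plexus genes (Ttr, Folr1, Kl, Clic6, Tmem72, Kcnj13, Otx2) were higher by the looser rule for 7 of 7 in KDEE against KDSH (median log2 fold change 3.86) and for 0 of 7 in WTEE against WTSH (median 0.71), with summed counts of 1402 to 211717 in WTSH, 2193 to 285883 in WTEE, 1223 to 5053 in KDSH and 4189 to 466622 in KDEE. The KDEE mean rested on mice 12 (466622) and 14 (128652), since the other KDEE mice were at 4189 to 5614, and the group medians were 5505 in KDEE and 2001 in KDSH. With the mean log2 CPM of the 7 choroid plexus genes as a covariate, Bok passed the looser rule in both housing comparisons. In KDEE against KDSH Rgs14 did not pass it under the covariate and Amigo2 did, at -0.21 in place of -0.11. Over all genes 1291 of 20187 passed it under the covariate in WTEE against WTSH and 940 of 20187 in KDEE against KDSH. The summed count of pituitary genes (Gh, Prl, Pomc) ran from 48.8 to 78.5 in WTSH, 62.7 to 659 in WTEE, 40.0 to 10758 in KDSH and 58.2 to 95.3 in KDEE, and 2 of 3 were higher in WTEE against WTSH and 3 of 3 lower in KDEE against KDSH by the looser rule. In KDSH only mice 8 (10758) and 1 (368) lay above the KDEE range, and the medians were 72.1 in KDSH and 70.0 in KDEE. Striatal (Rgs9, Adora2a), thalamic (Tcf7l2, Prkcd, Lef1, Ramp3), neocortical (Cux2, Rorb, Scnn1a), subicular (Fn1, Nts, Teddm3) and hilar mossy cell genes (Calb2, Csf2rb2, Glipr1) had medians of -0.01, 0.23, 0.03, 0.17 and 0.02 in WTEE against WTSH and 0.29, 0.27, 0.14, -0.01 and -0.02 in KDEE against KDSH. Of these 15 genes, 1 passed the looser rule in each of the 2 comparisons. The part of tissue outside the hippocampus in the marker values was not tested beyond the covariate.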

How the data were processed

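RNA from individual hippocampi was sequenced by the study as poly(A)-selected, paired-end libraries without strand marking. The values are raw read-pair counts per gene symbol, deposited by the authors after adapter trimming, alignment with STAR 2.5 to GRCm38 and counting with HTSeq 0.6.1p1, and after quality control with FastQC 0.11.3 (versions per the submitters' processing notes). Reads from overlapping genes on opposite strands cannot be told apart in such counts. Rows that named no gene, 13.1 to 21.3% of the counts in the 21 libraries, were left out of library sizes. The 10 markers and the further marker lists were chosen with earlier results of these data known, and 3 genes of the further lists are not reported here and enter no list value.

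The 21 libraries the study used entered 1 model with the 4 groups in edgeR 4.0.16 (R 4.3.3), with TMM scaling, filterByExpr and the quasi-likelihood test. Calls used the study's thresholds, an adjusted p below 0.05 with a log2 fold change beyond 0.38 either way. The 7 comparisons share groups and are not independent. Levels per kb used the union of exons in GENCODE M21 (GRCm38), and ratios between genes were taken as log2 of (count + 0.5) per kb in each library. Named genes were the 10 markers, Rps6ka5, the highest and lowest of a list, and the 3 most correlated genes per subfield. The Bok to Cpne4 ratio and the attention to WTEE mouse 10 were chosen after their values were seen. So were the correlations of Bok with marker lists. No 2 libraries held identical counts. Alternatives were DESeq2 1.42.0, its size factors, other filters, a robust fit, all 24 libraries, only the groups compared, a choroid plexus covariate, no fold threshold, and leaving out each library or marker. On simulated counts for WTEE against WTSH the test recovered 185 of 200 genes changed by 1 on the log2 scale, with 6 false calls among 19917 genes. Smaller changes, such as the 0.40 of Bok in WT mice, were not simulated. Each library came from 1 mouse, so the spread is that between mice. Mice of both housings shared cages, and the labels do not give the cage of each mouse. Differences between cages and between housings therefore cannot be told apart. Pandas 2.3.3 and Matplotlib 3.10.9 (Python 3.11.15) were used for ratios and plots.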

Additional observations from a re-analysis of the deposited data

Results flagged for a closer look

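WTEE mouse 10 lay far from the other 5 mice of its group in 3 of the 16 checks made in that group (10 markers and 6 ratios, which share genes). In each of the other groups 0 of 16 stood out. Over all groups 3 of 64 checks stood out, close to the 5% that chance flags. Its Dsp level was 969, beside 1656 to 1984 in the others, and the gap was 0.677 of the group's range. Its dentate to CA3 ratio was -2.54 on the log2 scale, with a gap of 0.664 of the range. Its CA1 to CA2 ratio was 1.40, with a gap of 0.627 of the range. The same mouse had 1.08% of counts on ribosomal RNA models, the second highest of the 21 libraries (median 0.199%), and 2.39% on models of ribosomal and other small structural RNAs, also the second highest (median 0.889%). Its summed choroid plexus count was 255285, beside 285883 in WTEE mouse 13 and 2193 to 3910 in the other 4 mice of the group. The part of these in the values of the mouse was not tested.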

How the results depend on the processing

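No marker was called under any alternative run, in any comparison. By the looser rule, the count in WTEE against WTSH was 2 with all 24 libraries, where 3631 of 19817 genes passed. In KDEE against KDSH it was 1 with no filter on low counts (3249 of 37787 genes). It was also 1 there with only the groups compared (3859 of 18784). In KDSH against WTSH it was 1 with all 24 libraries (479 of 19817). For KDEE against WTEE it was 2 with no filter (2320 of 37787) and 2 with only the groups compared (626 of 18948). In KD against WT averaged over housing it was 2 with no filter (1229 of 37787). With 1 library left out, the counts ran from 1 to 3 in KDEE against KDSH, 0 to 1 in KDSH against WTSH, 0 to 2 in KDEE against WTEE, 1 to 3 for averaged housing and 1 to 3 for averaged genotype. In KDEE against KDSH the number over all genes moved too. It was 1469 of 20148 without KDEE mouse 12 and 2773 of 20126 without KDSH mouse 18. No paired analysis was possible because no mouse number occurs in more than 1 group.

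Of the 70 fold changes (10 markers in 7 comparisons), 48 are printed or summarised here, a part chosen by hand. These 48 kept their sign under every alternative other than leaving out a library. Over all 70, the sign turned in 21 fits of such alternatives, each for a fold change outside the 48. The steady sign of the 48 thus rests on which were printed. In the fits without 1 library the sign turned in 88. No value whose sign turned was called. Without 1 library the log2 fold changes for WTEE against WTSH ran from -0.25 to 0.019 for Prox1, -0.29 to 0.28 for Dsp, -0.057 to 0.075 for C1ql2, -0.054 to 0.29 for Tdo2, -0.15 to 0.13 for Wfs1, -0.018 to 0.038 for Rgs14 and -0.080 to 0.024 for Amigo2. C1ql2 in KDEE against KDSH ran from -0.18 to 0.024. For averaged housing Dsp ran from -0.21 to 0.076, C1ql2 from -0.088 to 0.019 and Wfs1 from -0.036 to 0.10. Tdo2 in KDSH against WTSH ran from -0.023 to 0.32, and its interaction from -0.25 to 0.086. Rgs14 in KDEE against WTEE ran from -0.049 to 0.021.

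The ratios moved most with the choice of markers. With the longer lists, the differences of WTEE from WTSH were -0.16 (DG/CA1), -0.29 (DG/CA2), 0.17 (DG/CA3), 0.33 (CA1/CA3) and 0.47 (CA2/CA3). Those of KDEE from KDSH were -0.25 (DG/CA2), -0.16 (CA1/CA2), 0.15 (CA1/CA3) and 0.31 (CA2/CA3), and those of KDEE from WTEE were -0.11 (CA1/CA2) and -0.094 (CA1/CA3). Without Cpne4, CA1/CA3 was -0.46 in WT and -0.35 in KD mice with enrichment, and CA2/CA3 was -0.40 and -0.41, with 0.19 for KDEE against WTEE. Without Bok, CA1/CA3 was 0.0075 and 0.022, and CA2/CA3 was 0.068 and -0.038, with -0.027 for KDEE against WTEE. With summed counts, CA2/CA3 in WTEE against WTSH was -0.26. Leaving out 1 library moved no ratio by over 1 within-group SD but turned the sign of 10 of the 24 differences. With 4 to 6 mice a group and a log2 SD of up to 0.44 for Dsp, small differences in the dentate markers could not be seen.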
